A study of Mus musculus with 62 samples.

Results

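The genes described here are 10 members of the mouse Cyp2c subfamily of cytochrome P450 enzymes, namely Cyp2c29, Cyp2c37, Cyp2c38, Cyp2c39, Cyp2c40, Cyp2c50, Cyp2c54, Cyp2c55, Cyp2c70 and Cyp2c23, found by their Entrez identifiers in tables of RNA sequencing counts. All 10 were listed among the 16206 genes of the liver. The mice were female C57BL/6 animals, an inbred laboratory strain, that received the MARBLES mixture of polychlorinated biphenyls (PCBs, persistent industrial chemicals) by mouth. The liver groups were 4 mice given vehicle (0 mg/kg), 4 given 0.1 mg/kg, 6 given 1 mg/kg and 6 given 6 mg/kg, 20 libraries in all, and the prefrontal cortex and the striatum had 21 libraries each from the same 4 dose groups. Age, number of doses and time of tissue collection are not given in the labels, and nothing in them says how the mice were housed or batched. P-values therefore measure the spread between these animals only.

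Enzymes of the Cyp2c subfamily sit in the membrane of the endoplasmic reticulum, take electrons from cytochrome P450 reductase and insert oxygen into drugs, steroids and fatty acids. Many of them convert arachidonic and linoleic acid to epoxides and hydroxy acids, which are lipid signals, and hepatocytes are rich in Cyp2c RNA. Several Cyp2c genes are known targets of the receptors CAR (gene Nr1i3) and PXR (gene Nr1i2), which bind foreign chemicals including some PCBs, and several differ between the sexes and over the day.

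All positions are on chromosome 19 of the mouse build GRCm38.p6, from the RefSeq gene list. The cluster of 9 members spans 1.18 Mb, from Cyp2c55 (chr19:39006940-39042690) through Cyp2c29 (chr19:39287044-39330713), Cyp2c39 (chr19:39347346-39569568) and Cyp2c38 (chr19:39389556-39463103), to Cyp2c40 (chr19:39767073-39812814), Cyp2c37 (chr19:39992424-40012243), Cyp2c54 (chr19:40037939-40073845), Cyp2c50 (chr19:40089679-40113955) and Cyp2c70 (chr19:40153361-40187286). Cyp2c23 lies 3.82 Mb beyond it (chr19:44005022-44029256). Cyp2c38, Cyp2c40, Cyp2c54, Cyp2c70 and Cyp2c23 are on the minus strand and the other members are on the plus strand. Each member's transcript model has 9 exons. Cyp2c38 lies inside the span that RefSeq gives for Cyp2c39, on the opposite strand, and whether counting used strand is not given in the sources used here.

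The members range from near copies to distant relatives. Over the 45 pairs, the proteins translated from GENCODE vM21 shared between 51.2% and 94.5% of their residues (counted over the longer protein), with a median of 67.1%. Cyp2c37 and Cyp2c50 were the closest pair at 94.5%, Cyp2c50 and Cyp2c54 shared 92.4%, and Cyp2c37 and Cyp2c54 shared 91.2%. Cyp2c38 and Cyp2c39 shared 92.0%. The nearest relative of Cyp2c29 was Cyp2c39 at 84.9%, that of Cyp2c55 was Cyp2c29 at 71.2%, that of Cyp2c23 was Cyp2c29 at 60.3%, and that of Cyp2c70 was Cyp2c55 at 60.0%. Cyp2c40 was closest to a gene outside the 10, Cyp2c68, at 91.7%.

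**Figure D1:**
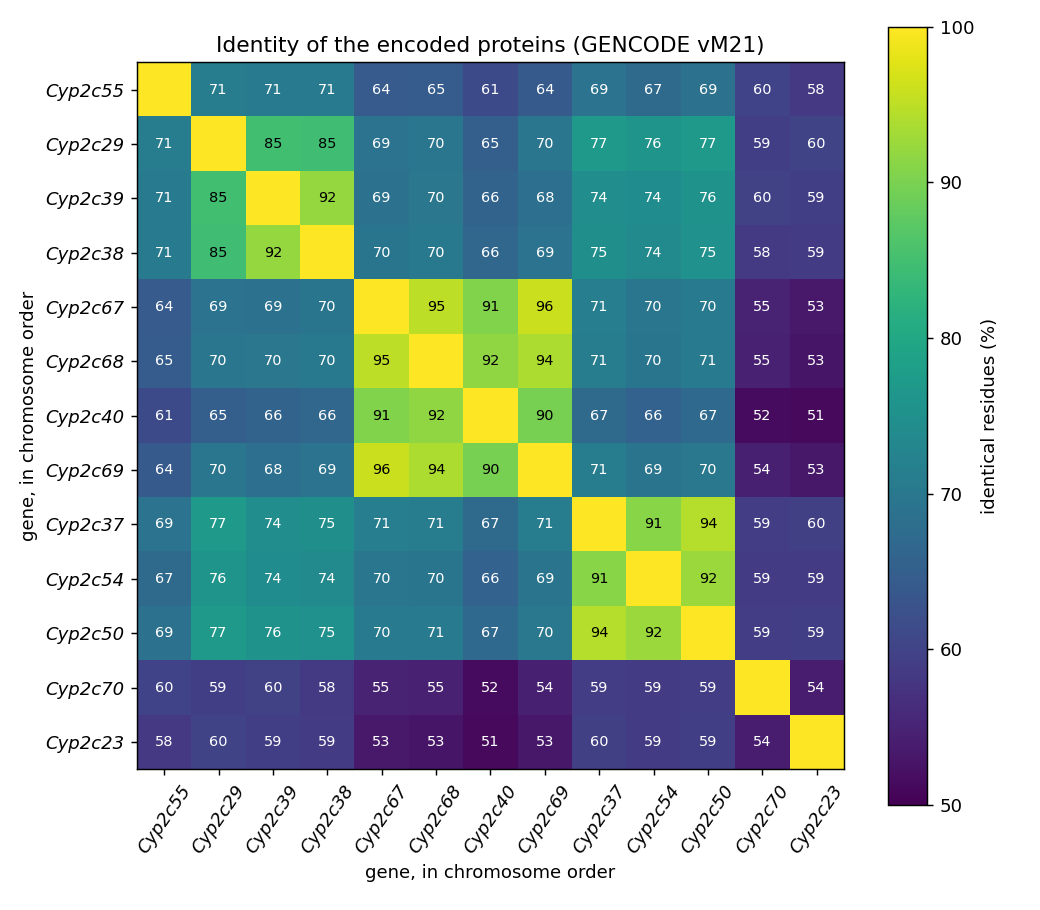
Percentage of identical residues between the proteins of the 10 members and of 3 other liver-listed Cyp2c genes (Cyp2c67, Cyp2c68 and Cyp2c69), both axes in chromosome order. Bright blocks mark Cyp2c37 with Cyp2c54 and Cyp2c50 (91.2% to 94.5%), Cyp2c38 with Cyp2c39 (92.0%) and Cyp2c40 with Cyp2c67, Cyp2c68 and Cyp2c69 (89.8% to 91.7%), while Cyp2c70 and Cyp2c23 stand apart.

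The likeness matters for the counts, since a read from a shared stretch can be given to the wrong copy. The first 90 coding bases of the trio that rose at 6 mg/kg are shown because they hold only 6 positions, in capitals, at which any of the 3 genes differs (GENCODE vM21).
Cyp2c37: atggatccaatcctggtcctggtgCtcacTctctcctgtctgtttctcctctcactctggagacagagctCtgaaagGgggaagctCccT
Cyp2c50: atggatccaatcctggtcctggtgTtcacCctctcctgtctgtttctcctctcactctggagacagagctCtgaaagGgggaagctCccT
Cyp2c54: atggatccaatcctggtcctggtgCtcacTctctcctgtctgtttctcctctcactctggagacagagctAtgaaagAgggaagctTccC
The same stretch of the pair whose members were lower at 6 mg/kg has 8 such positions.
Cyp2c38: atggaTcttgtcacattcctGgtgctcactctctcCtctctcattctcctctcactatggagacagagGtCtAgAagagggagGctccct
Cyp2c39: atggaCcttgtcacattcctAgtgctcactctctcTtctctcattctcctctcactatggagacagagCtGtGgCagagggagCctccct
Windows of 50 bases were used to measure how much of each transcript is found letter for letter in another gene's transcripts. That share was 72.1% for Cyp2c40, the highest of the members, and 42.1% of its windows were found in Cyp2c69. It was 30.1% for Cyp2c37, 30.7% for Cyp2c50 and 25.7% for Cyp2c54. Cyp2c39 had 12.0%, Cyp2c38 7.45%, Cyp2c29 2.08% and Cyp2c55 1.13%, and no window of Cyp2c70 or Cyp2c23 was shared. How reads that fit several genes were counted is not given in the sources used here, so the split of counts within the trio, within the Cyp2c38 and Cyp2c39 pair, and between Cyp2c40 and its relatives is uncertain.

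Promoter windows from RefSeq, 250 bases before to 50 after a start site, matched 8 members with 9 windows (Cyp2c39 has 2). Both strands were searched for the letters AGGTCA and AGTTCA (half-sites of nuclear receptors such as CAR and PXR), CAAAGTCCA (the core bound by the liver factor HNF4) and TATAAA (the TATA box), and none of these motifs overlapped another in the windows printed. AGGTCA was in 3 of the 9 windows (Cyp2c29, Cyp2c39 and Cyp2c70) and in 16.3% of all 32851 promoters, and AGTTCA was in 3 windows (Cyp2c39, Cyp2c40 and Cyp2c50) and in 14.0% of promoters. TATAAA was in 6 windows and in 13.6% of promoters. It lay 19 (Cyp2c29), 31 (Cyp2c38) and 29 (Cyp2c55) bases before the start site, and 29 before on the opposite strand in Cyp2c70. In Cyp2c39 the match was 3 bases before the start site and in Cyp2c40 it was 40 bases after. CAAAGTCCA was in 2 windows and in 0.475% of promoters. These are matches of letters only. The 2 windows with CAAAGTCCA belong to Cyp2c40 (chr19:39812765-39813064, minus strand, the match 45 bases before the start site) and Cyp2c70 (chr19:40187237-40187536, minus strand, 64 bases before), and are printed here. Capitals mark every match, and in the Cyp2c70 window TTTATA is TATAAA on the opposite strand.
Cyp2c40: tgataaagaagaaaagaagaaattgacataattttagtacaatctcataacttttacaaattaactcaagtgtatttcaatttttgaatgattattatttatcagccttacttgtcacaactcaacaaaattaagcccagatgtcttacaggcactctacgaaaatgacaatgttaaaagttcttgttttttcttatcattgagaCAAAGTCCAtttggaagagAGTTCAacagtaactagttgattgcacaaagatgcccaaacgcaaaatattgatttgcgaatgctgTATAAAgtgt
Cyp2c70: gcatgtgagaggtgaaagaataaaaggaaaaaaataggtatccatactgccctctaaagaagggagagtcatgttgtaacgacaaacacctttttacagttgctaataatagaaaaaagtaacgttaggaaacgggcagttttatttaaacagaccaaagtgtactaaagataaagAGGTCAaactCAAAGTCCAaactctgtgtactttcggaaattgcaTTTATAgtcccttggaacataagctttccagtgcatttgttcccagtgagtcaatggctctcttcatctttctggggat
The windows of Cyp2c37 (chr19:39992174-39992473) and Cyp2c50 (chr19:40089429-40089728), both on the plus strand, are shown because both genes rose at 6 mg/kg. The Cyp2c37 window held none of the letters searched, and that of Cyp2c50 held AGTTCA once, on the opposite strand, written TGAACT.
Cyp2c37: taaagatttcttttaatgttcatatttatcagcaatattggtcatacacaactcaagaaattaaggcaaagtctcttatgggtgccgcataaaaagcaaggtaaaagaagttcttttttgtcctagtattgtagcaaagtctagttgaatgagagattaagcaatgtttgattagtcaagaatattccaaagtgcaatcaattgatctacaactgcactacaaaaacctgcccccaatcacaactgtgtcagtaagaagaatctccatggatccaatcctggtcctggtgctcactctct
Cyp2c50: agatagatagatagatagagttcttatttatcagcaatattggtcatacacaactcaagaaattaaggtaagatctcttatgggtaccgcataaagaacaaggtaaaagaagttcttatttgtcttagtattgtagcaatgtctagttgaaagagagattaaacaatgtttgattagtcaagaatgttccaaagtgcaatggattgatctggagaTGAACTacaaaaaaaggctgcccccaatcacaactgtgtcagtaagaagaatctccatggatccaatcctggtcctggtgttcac

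The liver libraries held 7.38 to 10.2 M counts each (M stands for 10⁶), with 8.95 to 10.18 M for vehicle and 7.38 to 10.11 M for 6 mg/kg. Levels are given as CPM, counts per M counts after edgeR's scaling of the libraries. As a check of the tissue, 6 hepatocyte markers (albumin and others) summed to between 76238 and 170532 CPM in every liver library, and the kidney tubule markers Umod, Slc34a1 and Kap were not in the liver table. Of 3 intestine markers, Sis was not in the table and the other 2 summed to between 46.5 and 174 CPM, of which 1 was tested and did not pass at 6 mg/kg. Neuron markers summed to at most 40.7 CPM and glial markers to at most 48.7 CPM. The labels' extraction text speaks of brain punches for every sample, liver included.

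Per kb of transcript, which allows genes to be compared, the vehicle livers expressed Cyp2c29, an epoxygenase of arachidonic acid and a classic phenobarbital-induced gene, at 450 ± 75.7 CPM per kb (SD, n = 4). Next came Cyp2c70, which makes the muricholic acids of rodent bile, at 347 ± 68.9, Cyp2c37 at 315 ± 81.6 and Cyp2c40 at 304 ± 20.4 CPM per kb, and each of these overlapped its neighbour in the order. Cyp2c50 followed at 152 ± 27 CPM per kb, Cyp2c23 at 77.8 ± 18.8 and Cyp2c38 at 61.4 ± 9.64, and Cyp2c50 overlapped neither neighbour. Cyp2c54 stood at 12 ± 4.76 CPM per kb and overlapped Cyp2c39 at 6.96 ± 1.06. Cyp2c55, better known from colon and kidney, was lowest at 1.31 ± 0.372 CPM per kb and overlapped none. At 6 mg/kg the order by mean was Cyp2c37 (647 ± 185 CPM per kb, SD, n = 6), Cyp2c29 (567 ± 643), Cyp2c50 (339 ± 122), Cyp2c40 (166 ± 62.2), Cyp2c70 (161 ± 90.9), Cyp2c54 (119 ± 60.6), Cyp2c23 (113 ± 37.5), Cyp2c38 (34.3 ± 8.47), Cyp2c39 (3.15 ± 1.56) and Cyp2c55 (2.67 ± 2.64). Cyp2c54 stood above Cyp2c23 and Cyp2c38 in that order and below both in vehicle, and only the steps from Cyp2c23 to Cyp2c38 and from Cyp2c38 to Cyp2c39 were without overlap.

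**Figure D2:**
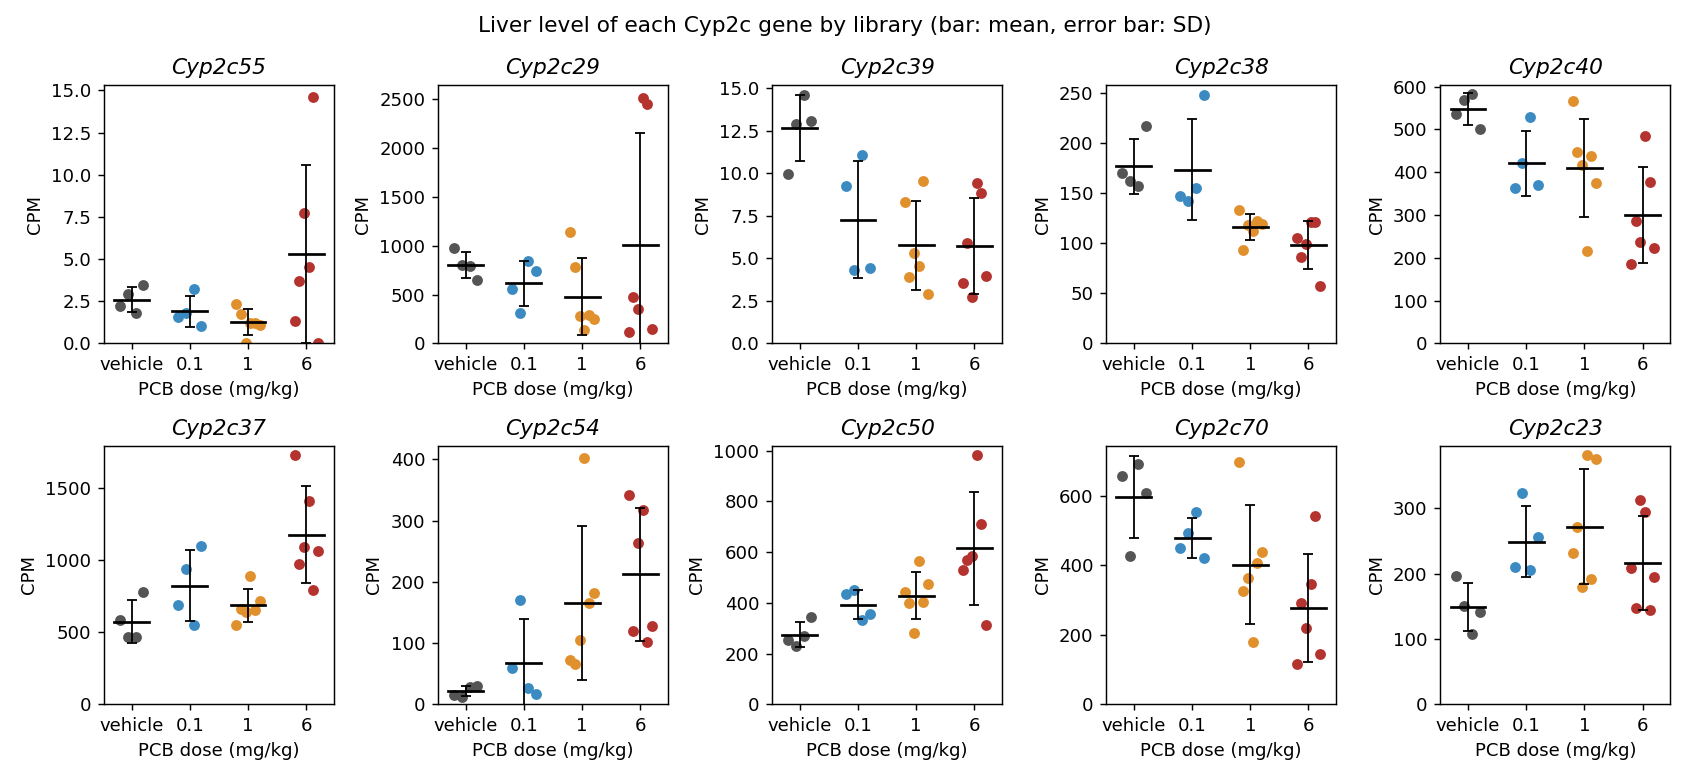
CPM of each member in every liver library by PCB dose, each panel with its own axis from 0; points are animals, bars are means and error bars are SDs, cut off at 0. Cyp2c37 and Cyp2c54 lie above every vehicle animal at 6 mg/kg, Cyp2c38, Cyp2c39 and Cyp2c40 lie below every vehicle animal, and Cyp2c29 runs from 116 to 2511 CPM at 6 mg/kg.

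At 6 mg/kg against vehicle, the trio Cyp2c37, Cyp2c50 and Cyp2c54 rose and Cyp2c38 fell, so 4 of the 10 members passed edgeR's quasi-likelihood test at an adjusted p under 0.05 over all genes. Over all 12968 liver genes tested, 2.8% passed, 1.8% higher and 0.995% lower. The largest change was that of Cyp2c54, about 9.93-fold. The median absolute log2 fold change was 1.03 over the members and 0.33 over all genes, and the signed medians were 0.44 and 0.02. The members' signs were mixed, with 6 positive and 4 negative. In whole liver, fewer cells of a type and less RNA per cell cannot be told apart.

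The vehicle and dosed livers also differed in the clock genes. A clock index, log2 CPM of Dbp (a circadian output gene) minus log2 CPM of Arntl (a core clock gene that peaks in antiphase), was 2.04, 2.49, 5.19 and 5.45 in vehicle animals 3, 4, 7 and 8. It ran from 6.17 to 7.98 at 0.1 mg/kg, from 5.76 to 8.60 at 1 mg/kg and from 6.58 to 8.48 at 6 mg/kg, so vehicle overlapped no dose group and clock state and treatment cannot be told apart. With the index as a term in the model, 0 members passed at 6 mg/kg, with log2 fold changes of 2.13 for Cyp2c54, 1.12 for Cyp2c50, 0.84 for Cyp2c37 and -0.59 for Cyp2c38. Without vehicle animal 3 the count of passing members was 0, without animal 4 also 0, without animal 7 it was 1, without 6 mg/kg animal 52 or 58 it was 2, and without animal 56 it was 7. The log2 fold changes without vehicle animal 3 and without animal 4 were 3.19 and 3.12 for Cyp2c54, 1.12 and 1.08 for Cyp2c50, 1.04 and 0.95 for Cyp2c37, and -0.86 and -0.88 for Cyp2c38, close to those with all animals given below. Over all genes, the 363 that passed with all animals became 11 without vehicle animal 3, 3 without animal 4 and 0 with the clock index in the model. The number was 94 without vehicle animal 7, 89 and 60 without 6 mg/kg animals 52 and 58, and 1302 without animal 56.

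**Figure D3:**
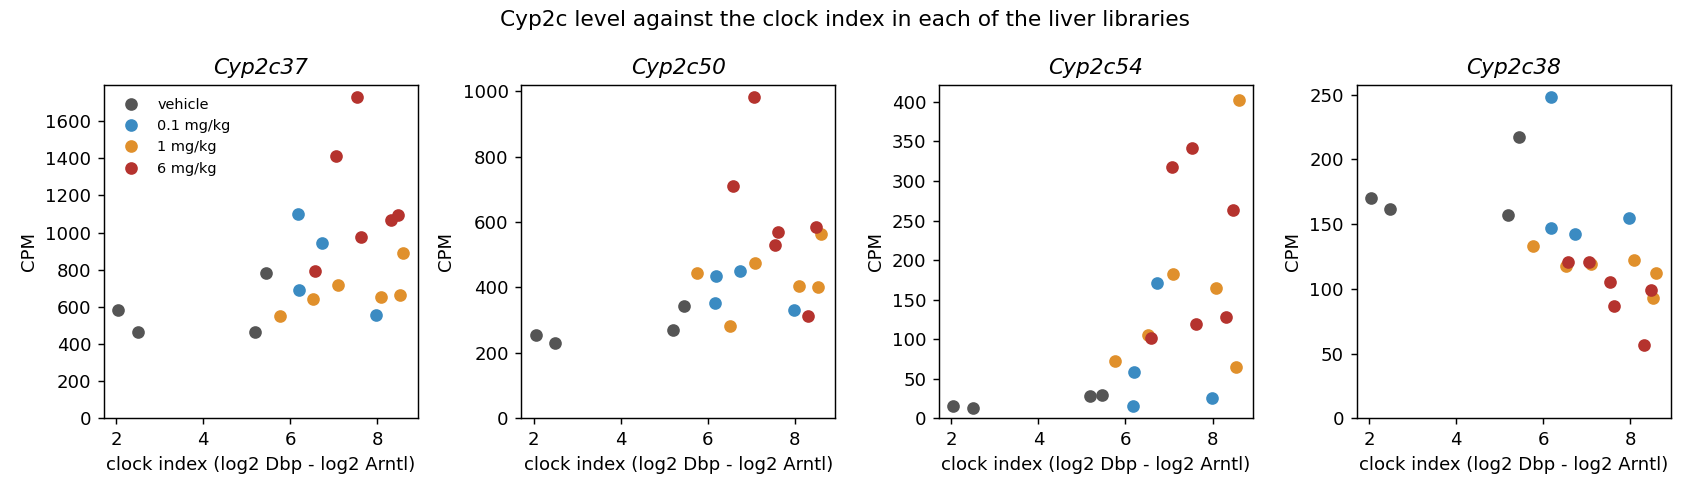
CPM of the 4 members that passed at 6 mg/kg against the clock index in each of the 20 liver libraries, coloured by dose. The vehicle animals (2.04 to 5.45) lie left of every dosed animal (5.76 to 8.60).

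Cyp2c54, an epoxygenase of arachidonic and linoleic acid, was at 15.7, 12.5, 28.1 and 29.2 CPM in vehicle animals 3, 4, 7 and 8, and at 6 mg/kg its lowest, median and highest values were 102, 195 and 342 CPM. Every 6 mg/kg animal was above every vehicle animal. The log2 fold change was 3.31 (SE 0.683, adjusted p in edgeR = 0.0204). It passed in 8 of 10 fits that each left out 1 animal.

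Cyp2c50, also an epoxygenase, was at 254, 231, 271 and 344 CPM in the vehicle animals and between 313 and 982 CPM at 6 mg/kg, with a median of 576. Animal 58 (313 CPM) was the only 6 mg/kg library inside the vehicle range, and animal 55 was highest. The log2 fold change was 1.16 (SE 0.245, adjusted p in edgeR = 0.0199), or 2.23-fold.

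Cyp2c37, which mainly hydroxylates arachidonic acid, was at 583, 467, 466 and 782 CPM in vehicle and between 793 and 1732 CPM at 6 mg/kg, with a median of 1082. The highest vehicle animal (8) and the lowest 6 mg/kg animal (56) stood next to each other without overlap. The log2 fold change was 1.04 (SE 0.237, adjusted p in edgeR = 0.0272), and it passed in 5 of 10 fits with 1 animal left out.

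Because the trio shares sequence, its counts were also summed, which does not depend on how counted reads were divided among the 3 genes. The sum averaged 871 ± 198 CPM in the 4 vehicle livers (± SD) and 2006 ± 527 CPM in the 6 livers at 6 mg/kg, with ranges of 711 to 1155 and 1509 to 2713 CPM that did not overlap. Its log2 fold change was 1.20 (SE 0.232). At the lower doses the sum averaged 1283 ± 295 CPM (0.1 mg/kg, SD, n = 4) and 1281 ± 308 CPM (1 mg/kg, SD, n = 6).

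Cyp2c38, an epoxygenase whose gene lies within the span of Cyp2c39, was at 170, 162, 157 and 217 CPM in vehicle and between 56.9 and 121 CPM at 6 mg/kg, with a median of 102. Every 6 mg/kg animal was below every vehicle animal. The log2 fold change was -0.84 (SE 0.197, adjusted p in edgeR = 0.0293), but it passed in only 2 of 10 fits that left out 1 animal. Summed with Cyp2c39, the pair averaged 189 ± 27.7 CPM in vehicle and 104 ± 26.1 CPM at 6 mg/kg, a log2 fold change of -0.86 (SE 0.195).

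The other 3 members with negative log2 fold changes did not pass at 6 mg/kg. Cyp2c40, a hydroxylase of arachidonic acid, was at 537, 569, 583 and 501 CPM in vehicle and between 186 and 485 CPM at 6 mg/kg (median 263), without overlap, and its log2 fold change was -0.87 (SE 0.244, adjusted p in edgeR = 0.054). Cyp2c39, an epoxygenase also known to hydroxylate retinoic acid, was at 9.97, 12.9, 14.6 and 13.1 CPM in vehicle and between 2.71 and 9.44 CPM at 6 mg/kg (median 4.93), also without overlap, with a log2 fold change of -1.13 (SE 0.356, adjusted p in edgeR = 0.0781). Both gaps were narrow, between 485 and 501 CPM for Cyp2c40 and between 9.44 and 9.97 CPM for Cyp2c39.

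Cyp2c70, the bile acid enzyme, was at 658, 427, 693 and 609 CPM in vehicle and between 115 and 541 CPM at 6 mg/kg, with a median of 256. Animal 56 (541 CPM) lay inside the vehicle range and the other 5 of the 6 mg/kg animals lay below it. The log2 fold change was -1.11 (SE 0.344, adjusted p in edgeR = 0.0762). With the clock index it was -0.47, and that of Cyp2c40 was -0.49. DESeq2's Wald test, a second model of the same counts, gave adjusted p-values of 0.0242 for Cyp2c70, 0.0141 for Cyp2c40 and 0.0365 for Cyp2c39, so that 7 members passed by that test, against 9.72% of all genes it gave an adjusted p.

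Counted by ranges instead of the test, 5 members did not overlap between vehicle and 6 mg/kg, 2 higher (Cyp2c37 and Cyp2c54) and 3 lower (Cyp2c38, Cyp2c39 and Cyp2c40). Over all genes tested, 6.76% did not overlap, 3.26% higher and 3.5% lower. Beside the lower members, the summed markers of pericentral hepatocytes, the cells around the central vein in which many Cyp2c enzymes are found, ran from 4283 to 10080 CPM at 6 mg/kg (median 5917) and from 6695 to 8926 CPM in vehicle (median 7525). The medians at 6 mg/kg and in vehicle were 4176 and 5029 CPM for the periportal markers, from the other end of the lobule, and 94709 and 105687 CPM for the general hepatocyte markers, with overlapping ranges in each list. Sums follow the most abundant markers. The general markers' log2 fold changes were -1.16 (Cps1), -0.71 (Tat), -0.65 (Fgb), -0.18 (Alb), -0.09 (Ttr) and 0.57 (Apoa1). Pericentral markers ran from -0.50 (Glul) to 0.67 (Axin2) and periportal markers from -1.32 (Ass1) to 0.55 (Sds). No pericentral, periportal or general marker passed in either direction, none was at 0 in all libraries, and the part of this spread in the Cyp2c values was not tested. Of 5 Kupffer cell markers (liver macrophages), 1 passed higher, as did 1.8% of all genes, and with the clock index no gene passed. It was Clec4f (log2 fold change 0.93, adjusted p in edgeR = 0.0333), named after its value was seen. The others were at 0.43 (Cd5l), 0.17 (Vsig4), -0.05 (Adgre1) and -0.06 (Marco) and did not pass. The sum of the 5 ran from 124 to 275 CPM at 6 mg/kg and from 92.9 to 163 CPM in vehicle, overlapping.

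**Figure D4:**
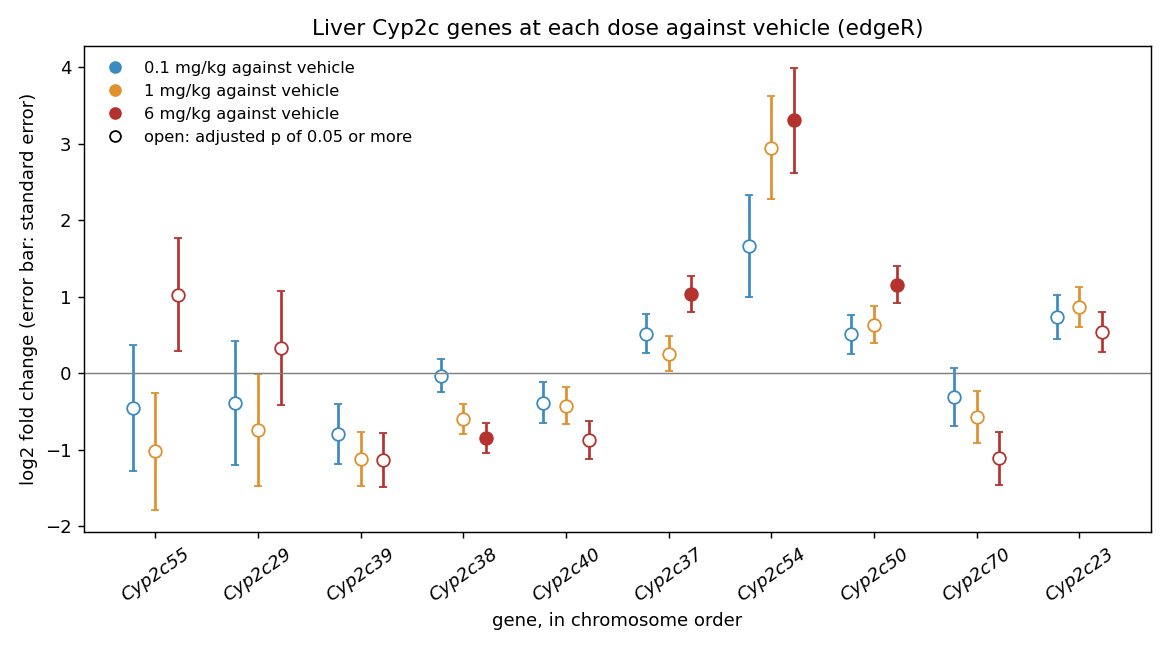
Log2 fold change of each member at 0.1, 1 and 6 mg/kg against vehicle from edgeR, with standard errors; filled points have an adjusted p under 0.05. Only Cyp2c38 (-0.84), Cyp2c37 (1.04), Cyp2c54 (3.31) and Cyp2c50 (1.16) at 6 mg/kg are filled, and the 3 doses share the same 4 vehicle animals.

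At 6 mg/kg Cyp2c29 had the widest spread of the abundant members, but not in vehicle. In vehicle it was at 974, 798, 794 and 644 CPM, and at 6 mg/kg animals 52, 53, 54, 55, 56 and 58 were at 116, 480, 352, 2511, 2450 and 152 CPM. Animals 55 and 56 were above every vehicle animal, and the other 4 were below every one. The coefficient of variation was 16.8% in vehicle and 114% at 6 mg/kg, and the log2 fold change was 0.33 (SE 0.744, adjusted p in edgeR = 0.816). Without animal 55 it was -0.18, without animal 56 it was -0.15, and with the clock index in the model it was 1.5. Cyp2b10, the standard marker gene of CAR activation, was at 11.4, 50.2, 51.1, 247, 216 and 26.5 CPM in the same 6 animals and at most 2.23 CPM in vehicle, so animals 55 and 56 were also the highest for Cyp2b10 and animals 52 and 58 the lowest.

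The other members split these animals in more than 1 way. At 6 mg/kg the highest level of Cyp2c37 (1732 CPM) and of Cyp2c54 (342 CPM) was in animal 52, which had the lowest level of Cyp2c29, Cyp2c40 (186 CPM) and Cyp2c70 (115 CPM). Animals 55 and 56 were the 2 highest for Cyp2c50 (982 and 709 CPM), Cyp2c39 (9.44 and 8.83 CPM), Cyp2c40 (485 and 377 CPM), Cyp2c38 (121 CPM in each) and Cyp2c70 (347 and 541 CPM). For Cyp2c23 the 2 highest were animals 54 and 55 (312 and 294 CPM), and for Cyp2c55 animals 56 and 54 (14.6 and 7.73 CPM). At 1 mg/kg, animal 46 was highest for Cyp2c54 (402 CPM), Cyp2c50 (565 CPM), Cyp2c37 (890 CPM) and Cyp2c23 (382 CPM), and lowest for Cyp2c29 (138 CPM), Cyp2c40 (217 CPM) and Cyp2c70 (179 CPM). These are descriptions of single animals.

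**Figure D5:**
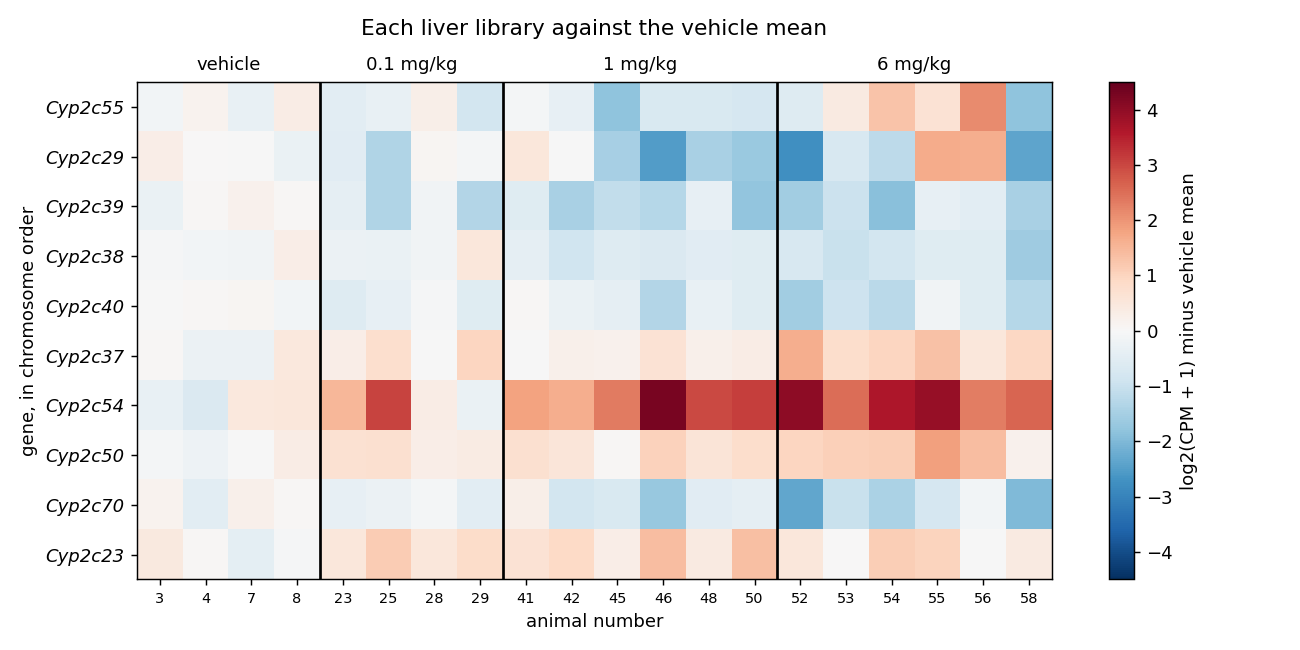
Log2(CPM + 1) of each member in every liver library minus the mean of the 4 vehicle libraries, genes in chromosome order and libraries grouped by dose. Animals 55 and 56 are red for Cyp2c29 where animals 52 and 58 are blue (1.66 and 1.62 against -2.76 and -2.38), and Cyp2c54 reaches 4.26 in animal 46 of the 1 mg/kg group.

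Cyp2c55 and Cyp2c23 also did not pass at 6 mg/kg. Cyp2c55 was at 2.23, 2.96, 1.79 and 3.45 CPM in vehicle and between 0 and 14.6 CPM at 6 mg/kg (median 4.14), on both sides of the vehicle range, with a log2 fold change of 1.03 (SE 0.742, adjusted p in edgeR = 0.4) that was 0.40 without animal 56. Its 534 counts over all 20 libraries limit what could be detected. Cyp2c23, an epoxygenase best known from the kidney, was at 196, 151, 108 and 141 CPM in vehicle and between 144 and 312 CPM at 6 mg/kg (median 201), overlapping, with a log2 fold change of 0.54 (SE 0.262, adjusted p in edgeR = 0.21).

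At 1 mg/kg against vehicle, 0 members passed, as did 0% of all genes, while 5 members and 1095 of all 12968 genes had an unadjusted p under 0.05 in edgeR. Cyp2c54 ran from 64.9 to 402 CPM with a median of 135, above every vehicle animal, and its log2 fold change was 2.95 (SE 0.671, adjusted p in edgeR = 0.247), or 1.73 with the clock index. By DESeq2's Wald test Cyp2c54 passed at this dose, as did 0.162% of all genes. Cyp2c38 (93 to 133 CPM, log2 fold change -0.60) and Cyp2c39 (2.91 to 9.53 CPM, log2 fold change -1.12) lay below every vehicle animal. Those 3 members did not overlap vehicle, against 1.59% of all genes (0.848% higher and 0.74% lower). Cyp2c23 ran from 180 to 382 CPM with a median of 252 and a log2 fold change of 0.87, its highest mean of any dose, but overlapped vehicle. Cyp2c50 had a log2 fold change of 0.64, and Cyp2c29 lay on both sides of vehicle, between 138 and 1139 CPM (-0.74). The remaining members all overlapped vehicle, with log2 fold changes of 0.26 for Cyp2c37, -0.42 for Cyp2c40, -0.57 for Cyp2c70 and -1.02 for Cyp2c55.

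At 0.1 mg/kg against vehicle, 0 members passed, against 0.0154% of all genes, and 2 members and 532 of all genes had an unadjusted p under 0.05 in edgeR; by DESeq2 the count was also 0, against 0.0963% of all genes. Those 2 members were Cyp2c54 and Cyp2c23. Cyp2c54 was at 58.6, 171, 25.8 and 16.1 CPM in animals 23, 25, 28 and 29, so 2 animals were above the vehicle range and 2 were within it (log2 fold change 1.67, SE 0.669, edgeR adjusted p = 0.994). Without animal 25 the value of Cyp2c54 was 0.65, and with the clock index in the model it was 0.79. Cyp2c23 was at 210, 323, 206 and 256 CPM, every animal above every vehicle animal (log2 fold change 0.74, SE 0.284, edgeR adjusted p = 0.994), and was the 1 member without overlap, against 4.13% of all genes (2.14% higher and 1.99% lower). The other log2 fold changes were 0.52 for Cyp2c37, 0.51 for Cyp2c50, -0.03 for Cyp2c38, -0.31 for Cyp2c70, -0.38 for Cyp2c40, -0.39 for Cyp2c29, -0.45 for Cyp2c55 and -0.79 for Cyp2c39.

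The comparison of 6 with 0.1 mg/kg takes its fold changes from groups without vehicle animals, whose clock indices overlapped, but its standard errors and p-values come from the model of all 20 libraries, vehicle included. In it 0 members passed, against 0.0386% of all genes (0.0154% higher and 0.0231% lower), and 5 members and 1657 of all genes had an unadjusted p under 0.05 in edgeR. Cyp2c38 was at 147, 142, 155 and 248 CPM at 0.1 mg/kg, above every 6 mg/kg animal, with a log2 fold change of -0.82 (SE 0.197, adjusted p in edgeR = 0.123). In a fit of these 2 groups alone its adjusted p in edgeR was 0.342. It passed by DESeq2, as did 1.42% of all genes. It was the only member without overlap, against 3.12% of all genes (1.4% higher and 1.72% lower). The other log2 fold changes among the 5 were 1.64 for Cyp2c54, 0.65 for Cyp2c50, 0.52 for Cyp2c37 and -0.79 for Cyp2c70. All 5 had the same sign as against vehicle, and the 6 mg/kg animals are common to both comparisons. Without 0.1 mg/kg animal 25 the value of Cyp2c54 was 2.67. The remaining members were at 1.48 (Cyp2c55, 0.86 without 6 mg/kg animal 56), 0.72 (Cyp2c29), -0.20 (Cyp2c23), -0.34 (Cyp2c39) and -0.49 (Cyp2c40).

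Tested as a slope over the rank of the dose, 6 members passed, 3 upward and 3 downward, against 4.81% of all genes (2.85% upward and 1.96% downward). The upward slopes, in log2 units per dose step, were 1.09 for Cyp2c54 (SE 0.223, adjusted p in edgeR = 0.0164), 0.36 for Cyp2c50 (SE 0.074, adjusted p in edgeR = 0.014) and 0.30 for Cyp2c37 (SE 0.0792, adjusted p in edgeR = 0.0368). The downward slopes were -0.32 for Cyp2c38 (SE 0.0634, adjusted p in edgeR = 0.0126), -0.27 for Cyp2c40 (SE 0.0765, adjusted p in edgeR = 0.0462) and -0.36 for Cyp2c70 (SE 0.106, adjusted p in edgeR = 0.0495). Cyp2c39 had the same slope as Cyp2c70, -0.36, with an adjusted p of 0.0528 in edgeR. The remaining slopes, which did not pass, were 0.36 for Cyp2c55, 0.15 for Cyp2c23 and 0.11 for Cyp2c29. Cyp2c38, Cyp2c50 and Cyp2c54 passed in all 20 fits that left out 1 animal, Cyp2c37 in 12, Cyp2c40 in 6 and Cyp2c70 in 3. In contrast, 0 members passed with the clock index in the model or with vehicle animals 3 and 4 both left out. Over all genes, 3 of 12968 and 8 of 13521 passed in those fits. For a slope over mg/kg 3 members passed (Cyp2c37, Cyp2c38 and Cyp2c50), as did 483 of all 12968 genes. Cyp2c54 did not pass for that slope (0.26 log2 units per mg/kg, edgeR adjusted p = 0.154). With the clock index the slopes were 0.67 for Cyp2c54, 0.35 for Cyp2c50, 0.28 for Cyp2c37, -0.29 for Cyp2c38, -0.19 for Cyp2c40 and -0.25 for Cyp2c70. Without both vehicle animals they were 0.93, 0.32, 0.27, -0.35, -0.26 and -0.40 in the same order. By DESeq2, 7 members passed the trend, against 9.86% of all genes.

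The family's total overlapped between vehicle and 6 mg/kg. All 10 members together averaged 3158 ± 246 CPM without PCBs (SD, n = 4), 3229 ± 242 at 0.1 mg/kg (SD, n = 4), 2969 ± 488 at 1 mg/kg (SD, n = 6) and 3919 ± 1603 at 6 mg/kg (SD, n = 6). The 6 mg/kg livers ran from 2287 to 6486 CPM, on both sides of the vehicle range of 2833 to 3399. Within that total the trio's largest member, Cyp2c37, was 18.1 ± 3.92% in vehicle and 33.8 ± 14.1% at 6 mg/kg, with overlapping ranges (15 to 23.8% and 15.1 to 51.9%). Cyp2c54 was 0.673 ± 0.256% and 5.83 ± 3%, without overlap. The share of Cyp2c40 was 17.5 ± 2.32% and 7.86 ± 1.61%, and that of Cyp2c70 was 18.8 ± 2.95% and 7.04 ± 2.64%, with no overlap between groups for either. The shares of Cyp2c38, Cyp2c39 and Cyp2c50 did not overlap, and those of Cyp2c29, Cyp2c55 and Cyp2c23 did. Shares of one total are not independent of each other.

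The 3 other Cyp2c genes in the liver table, Cyp2c67, Cyp2c68 and Cyp2c69, did not pass in any comparison. At 6 mg/kg against vehicle their log2 fold changes were -0.25 (Cyp2c67), -0.20 (Cyp2c68) and -0.35 (Cyp2c69). Since they share much of their sequence with Cyp2c40, the 4 genes were also summed, a choice made after the data were seen. This sum averaged 1687 ± 124 CPM (SD, n = 4) without PCBs and 1244 ± 297 CPM (SD, n = 6) with the highest dose. Its log2 fold change was -0.44 (SE 0.175), smaller in size than the -0.87 of Cyp2c40 alone.

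Genes that act with the Cyp2c enzymes were compared at 6 mg/kg with vehicle, where 1.8% of all genes passed higher and 0.995% lower. With the clock index in the model 0 of all 12968 genes passed in edgeR, so none of the genes named here did. Of 10 regulators, 1 rose and none fell. It was Nr1i2, which encodes PXR, from a vehicle mean of 65.2 ± 7.84 CPM (SD, n = 4) to 106 ± 28 CPM (SD, n = 6), with a log2 fold change of 0.71 (SE 0.187, adjusted p in edgeR = 0.0441). Nr1i3, which encodes CAR, had a log2 fold change of 1.03 and did not pass (edgeR adjusted p = 0.0698). The regulators' median log2 fold change was -0.02. Of 6 electron donors and haem supply genes none passed, and their log2 fold changes had a median of 0.15. They ran from -0.88 for Cyb5b, a form of the electron carrier cytochrome b5, to 1.31 for Alas1, the first enzyme of haem synthesis (edgeR adjusted p = 0.109 and 0.0904), with Por, the P450 reductase, at 0.63 (edgeR adjusted p = 0.199).

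Of 13 other targets of CAR and PXR, 4 rose and none fell, against 1.8% higher and 0.995% lower over all genes, and 0 passed with the clock index. Cyp2b10 had a log2 fold change of 6.01 (SE 0.912, adjusted p in edgeR = 0.00592), the carboxylesterase gene Ces2a 1.01 (SE 0.173, adjusted p in edgeR = 0.00932), the drug-metabolising Cyp3a59 1.20 (SE 0.251, adjusted p in edgeR = 0.0197) and the efflux transporter gene Abcc3 1.07 (SE 0.238, adjusted p in edgeR = 0.0244). The list's median log2 fold change was 0.20. Of 13 tested genes of the fatty acid epoxide pathway (15 listed), 2 rose and none fell, against the same shares and again 0 with the clock index. They were Cyp4f15 at 0.79 (SE 0.203, adjusted p in edgeR = 0.0416) and the epoxygenase gene Cyp2j9 at 1.71 (SE 0.452, adjusted p in edgeR = 0.046), and the list's median was 0.55. The genes of this list that did not pass had values on both sides of 0, from -0.57 for the epoxygenase gene Cyp2j5 (edgeR adjusted p = 0.134) to 1.75 for the fatty acid hydroxylase gene Cyp4a10 (edgeR adjusted p = 0.0904). Cyp2j5 averaged 419 CPM in vehicle, and Cyp2j9 5.46 CPM. The soluble epoxide hydrolase gene Ephx2, whose enzyme breaks down fatty acid epoxides, was at 0.51 (edgeR adjusted p = 0.133). None of 4 bile acid synthesis genes passed, with a median of -0.50. Nr1i3, Cyb5b, Por, Alas1, Cyp2j5, Cyp4a10 and Ephx2 were chosen for naming after their values were seen.

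Across the 20 liver libraries the log2 CPM of the members was correlated pair by pair, as a description of libraries that share dose, clock state and scaling. By Pearson's r the most alike pair was Cyp2c40 and Cyp2c70 (r = 0.90, Spearman 0.77), then Cyp2c50 and Cyp2c54 (0.75 and 0.74) and Cyp2c39 and Cyp2c40 (0.72 and 0.73). By Spearman's rho, Cyp2c38 and Cyp2c70 came next after the first pair (0.75, with an r of 0.68). The most opposite pairs by r were Cyp2c37 with Cyp2c40 (r = -0.73, Spearman -0.76), Cyp2c37 with Cyp2c70 (-0.71 and -0.67) and Cyp2c39 with Cyp2c23 (-0.68 and -0.65). Cyp2c37 and Cyp2c50, the closest pair in protein sequence, had an r of 0.65. Outside the family, the genes most like Cyp2c37 were Pdilt, Itgb2l and Gbp11 (r = 0.83 each), and those most like Cyp2c50 were Cyp1a2 (0.85), 4931406C07Rik (0.82) and Ces2a (0.80). For Cyp2c29 they were Pcsk6 (0.93), Lgals3bp (0.92) and Polr2m (0.91), and for Cyp2c40 the fibrinogen genes Fga (0.95) and Fgg (0.94) and the purine enzyme gene Pnp (0.94).

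In the brain, 1 of the 10 members was listed, Cyp2c23, in both regions. In the prefrontal cortex it had 69 counts over 21 libraries, between 0 and 8 each, and averaged 0.336 ± 0.191 CPM (SD, n = 21). In the striatum it had 100 counts over 21 libraries, also between 0 and 8 each, and averaged 0.501 ± 0.273 CPM (SD, n = 21). Its highest brain value, 0.877 CPM, was far under the lowest liver value of 108 CPM. By dose the prefrontal cortex means were 0.406 ± 0.308 (vehicle, n = 4), 0.275 ± 0.197 (0.1 mg/kg, n = 5), 0.308 ± 0.182 (1 mg/kg, n = 6) and 0.368 ± 0.122 CPM (6 mg/kg, n = 6). The striatum means were 0.34 ± 0.257 (vehicle, n = 4), 0.627 ± 0.251 (0.1 mg/kg, n = 5), 0.324 ± 0.246 (1 mg/kg, n = 6) and 0.679 ± 0.19 CPM (6 mg/kg, n = 6), with overlapping ranges in both regions. Cyp2c23 did not pass the filter on low counts in either region, so no dose was tested there. The tables list genes with at least 10 counts over their libraries, so the other 9 members were not analysed in the brain.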

How the data were processed

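Liver, prefrontal cortex and striatum RNA of PCB-dosed and vehicle-treated female mice was sequenced. The authors deposited a table of gene counts (whole numbers) for each tissue, with Entrez identifiers and 1 library a column. Per the submitters' processing notes, HISAT2, FastQC and the mm10 build were used. The counting tool, annotation, strand and handling of reads that fit several genes are not given in the sources used here, and messenger RNA was enriched by poly(A) capture or rRNA removal, per the labels, without saying which. Columns carry the sample titles, and the number in a title was taken as the animal's. Group and dose come from the labels.

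Symbols and positions came from RefSeq (GRCm38.p6), which named 99.95% of the liver identifiers, and transcripts from GENCODE vM21. Liver libraries of 1 group differed by at least 12.93 chi-square units per degree of freedom, so each counted as 1 replicate. A single model of all 20 liver libraries used edgeR 4.0.16 under R 4.3.3 (filterByExpr, TMM scaling, robust quasi-likelihood), with Benjamini-Hochberg adjustment over 12968 genes. All 10 members passed that filter. A standard error is the size of the log2 fold change over the root of its F statistic. The code was tested on simulated data. Protein identities used Biopython 1.88 and figures matplotlib 3.10.9.

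All 10 members are named in every comparison. Of the gene lists, those that passed with the smallest p are named, at most 10 a comparison, and the genes most like a member are the 3 with the highest Pearson r, given for 4 members. Members and lists were chosen with earlier results of these data known. Alternatives were DESeq2 1.42.0, median-ratio size factors, other filters on low counts, 2 groups alone, a slope over mg/kg, the clock index as covariate and each animal left out. Leaving out vehicle animals 3 and 4 together, and some sums, were added after the data were seen. Brain doses were not tested, since no member passed the filter there.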

Additional observations from a re-analysis of the deposited data

Results flagged for a closer look

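Each gene's values within each liver dose group were checked for a single library far from the others, in 48 sets of 4 to 6 libraries. Chance alone marks about 1 in 20 such sets, or about 2.4 here, and 2 were found. Cyp2c38 was at 248 CPM in animal 29 of the 0.1 mg/kg group, where the other animals were at 142 to 155 CPM. Cyp2c54 was at 402 CPM in animal 46 of the 1 mg/kg group, where the others ran from 64.9 to 182 CPM.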

How the results depend on the processing

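At 6 mg/kg 4 members passed, and 4 also did with median-ratio size factors, without a filter and with a mean of at least 10 counts. The count was 7 by DESeq2, 1 with the 2 groups alone, 0 with the clock index, 0 without vehicle animals 3 and 4, and between 0 and 7 with 1 animal left out. Over all genes, 363 became 1138 by DESeq2, 13 with the 2 groups alone and 3 to 1302 with 1 animal left out. No gene passed with the clock index or without vehicle animals 3 and 4. The trend's 6 became 0 with the clock index, 0 without vehicle animals 3 and 4, 3 for a slope over mg/kg, 4 without a filter, 7 by DESeq2, and 3 to 7 with 1 animal left out. Over all genes, the trend's 624 became 3, 8, 483, 414 and 1228 in the same order, and 79 to 1317 with 1 animal left out. DESeq2 gave 1 member at 1 mg/kg (Cyp2c54, adjusted p = 0.00391) and 1 at 6 against 0.1 mg/kg (Cyp2c38, adjusted p = 0.0146), against 0 by edgeR. Apart from fits on fewer animals, the cause was not tested.

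Log2 fold changes that turned sign belonged to members that had not passed in that comparison. With the clock index, Cyp2c29 was at 0.74 (0.1 mg/kg) and 0.50 (1 mg/kg), Cyp2c70 at 0.23 and 0.03, Cyp2c38 at 0.17 (0.1 mg/kg) and the trend of Cyp2c23 at -0.01. The trend of Cyp2c23 over mg/kg was -0.00. With 1 animal left out, Cyp2c38 at 0.1 mg/kg ran from -0.25 to 0.09, Cyp2c29 at 6 mg/kg from -0.18 to 0.57 and the trend of Cyp2c29 from -0.08 to 0.17. The 4 members that passed at 6 mg/kg kept their sign in every fit of that comparison.

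No paired analysis was possible because the dose groups of a tissue share no animal number. Depth limits Cyp2c55 in the liver and Cyp2c23 in the brain, and near-identical genes limit the split of counts among Cyp2c37, Cyp2c50 and Cyp2c54.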
